A study of Mus musculus with 18 samples.

Results

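The effect of the Akita genotype on the retina was measured as the part of the difference between Akita and WT that was seen both in mice given NACET and in mice given water alone. Poly(A) RNA of whole retinas from male mice was counted in 18 libraries, 9 of each genotype. WT mice were normoglycemic C57BL/6J. Akita mice (C57BL/6-Ins2Akita/J) are heterozygous for a missense mutation of Ins2 that is present in every tissue and leads to insulin-dependent diabetes. NACET, the ethyl ester of N-acetyl-L-cysteine, was dissolved in the drinking water (0.33 mg/mL, an intake of 50 mg/kg a day) from 4 to 24 weeks of age. There were 3 WT, 6 WT + NACET, 4 Akita and 5 Akita + NACET libraries, and each NACET comparison therefore had its own untreated counterpart with no library in common. The labels do not say that each library came from its own mouse, so p-values measure the spread between these libraries.

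Of 16183 genes tested, 141 met the rule for a shared genotype effect, 104 higher and 37 lower in Akita. A gene met it when its effect adjusted for NACET had an adjusted p of at most 0.05 and when it changed in the same direction, with an unadjusted p of at most 0.05, both without NACET (Akita against WT) and with it (Akita + NACET against WT + NACET). All tests are the quasi-likelihood F test of edgeR with Benjamini-Hochberg adjustment over all genes tested. Since the rule used all of these values, folds and p-values of the 141 genes are given as a description.

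As background, diabetes acts on the neurons, glia and vessels of the retina alike. Mueller glia clear glutamate and ammonia, the pigment epithelium behind the retina recycles the visual pigment, and sustained high glucose feeds the polyol pathway through aldose reductases and burdens cells with oxidative stress. NRF2, the factor encoded by Nfe2l2, switches on antioxidant enzymes when its inhibitor KEAP1 is modified. Akita mice are used as a model of early diabetic retinopathy because their hyperglycemia arises without any drug.

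The libraries held between 11495596 and 17814479 gene counts, and genotypes did not differ in depth by more than the spread between libraries (two-sided exact permutation test within treatments, p = 0.405, 9 against 9 libraries, adjusted p = 0.698 over 2 measures). Gnat1, the transducin alpha subunit of rods, averaged 14251 CPM over the 18 libraries and Sag, the arrestin of rods, 9689 CPM. CPM here are counts scaled to library size with TMM factors. Ins2 itself never exceeded 9 counts, too few to check the genotype labels. Some libraries stood apart. The WT + NACET libraries differed from all 12 others in 5 of 9 tested genes of a list linked to C57BL/6 substrains, with no overlap. The share of all genes tested that set this group apart in the same way is not given here. Wdfy1 was at 89.0 to 103 CPM in them and at 12.4 to 16.98 CPM elsewhere, and Nnt, the gene whose partial deletion marks C57BL/6J, was at 16.3 to 23.8 CPM against 7.05 to 14.8. Strain background and treatment cannot be told apart in this group. The fold change without NACET compares no library of this group, though its p-value uses a spread estimated from all 18 libraries. Lens crystallin genes summed to 29727 CPM in WT + NACET replicate 5, 3463 CPM in Akita replicate 2, 1542 CPM in Akita + NACET replicate 3 and 446 CPM in Akita + NACET replicate 5, and to between 40.3 and 135 CPM in the other 14 libraries. None of the 16 lens crystallin genes was called. Akita replicate 4 was the highest of all 18 libraries for 85 of the 104 genes that were higher in Akita. The share of reads outside annotated exons was lower in Akita than in WT without NACET, at 9.67% to 13.3% against 14.9% to 17.1% (exact permutation p = 0.0286, unadjusted). It was higher in Akita with NACET, at 14.3% to 19.8% against 9.55% to 16.5% (exact permutation p = 0.0455, unadjusted). Averaged over both, these opposite differences largely cancelled, to −0.586 percentage points (exact permutation p = 0.698, adjusted p = 0.698).

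The shared genes were a small part of those called between Akita and WT libraries in either comparison. Adjusted for NACET, 220 genes were called, 1.36% of those tested, with 135 higher (0.834%) and 85 lower (0.525%). Without NACET 7.64% of genes were called and with NACET 13.3%. The difference between these effects, the interaction, was called for 20.3%. Of the 202 genes called in both comparisons, 25 had the same direction and 177 the opposite one. Over all genes the direction was the same for 39.5%, and the effects of the comparisons had a Pearson correlation of −0.24, taken across genes that are no independent replicates. The 141 shared genes made up 0.871% of those tested. The other 79 of the 220 had an unadjusted p above 0.05 without NACET. At an adjusted p of at most 0.05, 56 of the 141 passed in the comparison without NACET, 101 in that with it and 25 in both. The fold change without NACET compares no WT + NACET library. Its p-value rests on a spread estimated from all 18 libraries. Without Akita replicate 4 the rule named 95 genes, 80 of them among the 141, and without WT replicate 1 it named 57, 46 of them among the 141.

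**Figure D1:**
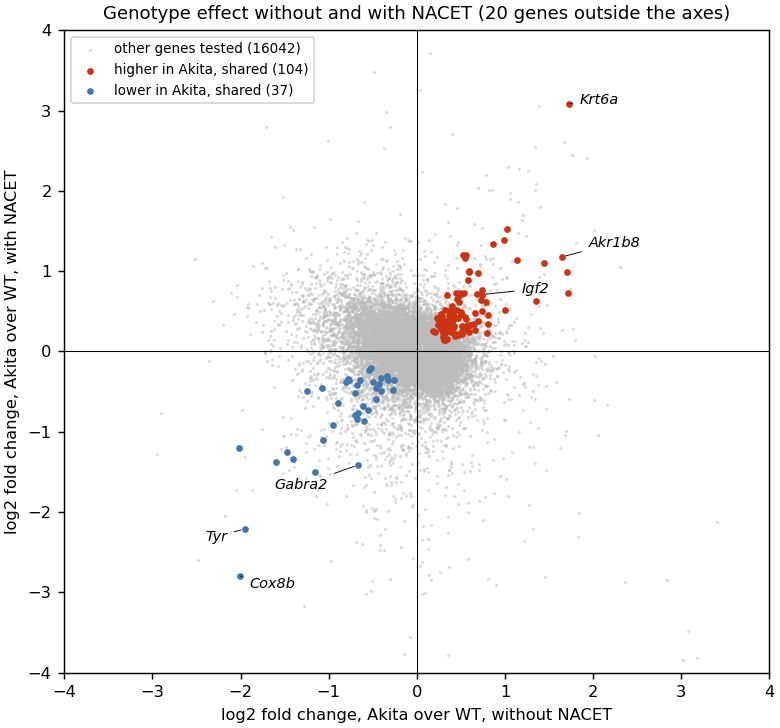
Log2 fold change of Akita over WT without NACET (x axis) and with NACET (y axis) for every gene tested, with 20 genes beyond the axes. The 104 genes higher in both lie in the upper right and the 37 lower in both in the lower left, while the cloud of the other 16042 genes leans to the opposite diagonal.

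The shared changes were mostly small. Their median absolute log2 fold change was 0.46, with a range from 0.21 to 2.53, and 18 genes, 9 in each direction, differed by more than 2-fold. The median was 0.42 for the genes that were higher and −0.65 for those that were lower. Of the 141, 134 were annotated as protein coding. The interaction was called for 2 of them, Tmem116 and Dnajb12. For 17 of the 141, 14 higher and 3 lower, the 9 Akita libraries did not overlap the 9 WT libraries, against 27 genes (0.167%) among all tested.

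**Figure D2:**
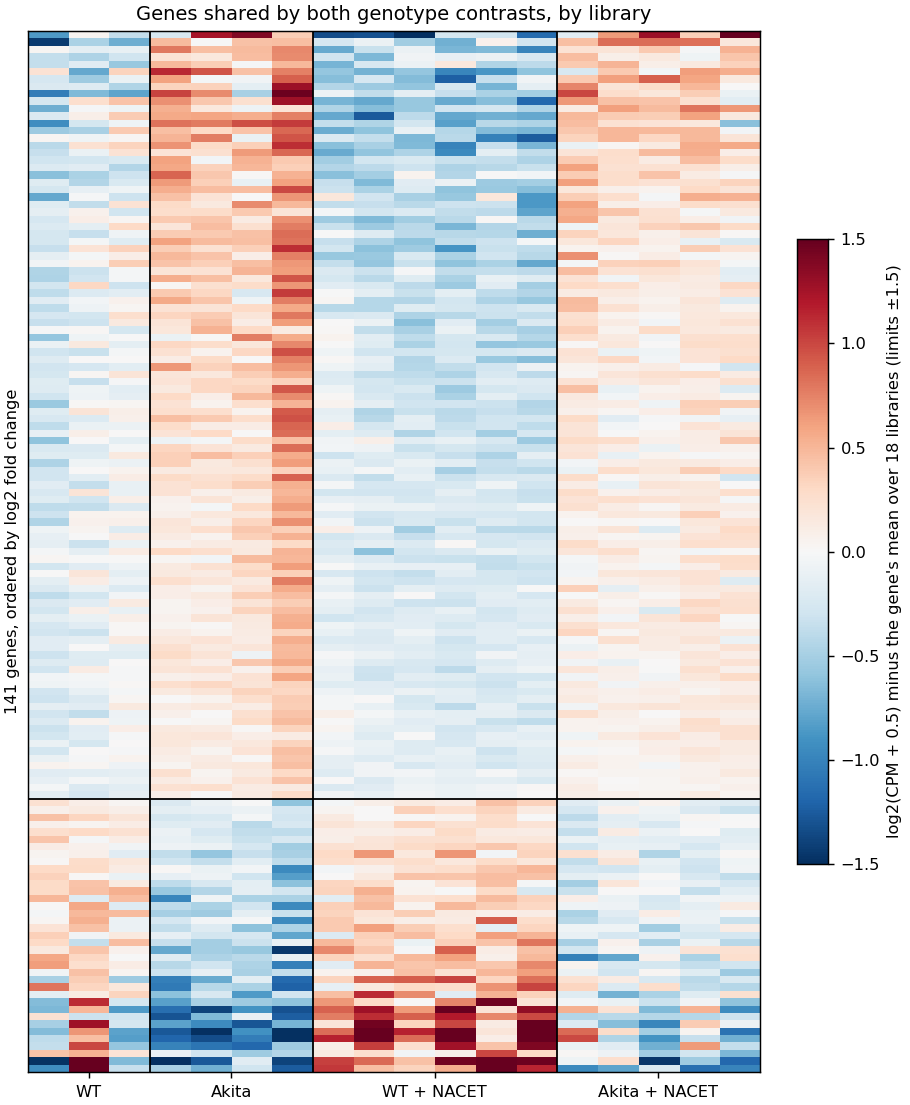
Level of the 141 shared genes (rows, ordered by fold change, the line dividing higher from lower) in the 18 libraries (columns, in 4 groups), as log2(CPM + 0.5) minus the mean of the gene, with colours limited at ±1.5. Akita replicate 4, the last column of the Akita block, is the highest library in 85 of the 104 upper rows, and the lowest rows vary widely between libraries of 1 group.

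The growth factor gene Igf2 had the smallest p-value of all genes. Igf2 (ENSMUSG00000048583.9, mm9 chr7:149836673-149852721, minus strand) encodes insulin-like growth factor 2 and is imprinted, with expression from the paternal copy in most tissues. It was at 11.7, 11.99 and 9.88 CPM in WT and at 20.5, 17.4, 19.3 and 17.4 CPM in Akita. With NACET it was between 9.65 and 10.8 CPM, with a median of 10.1, in WT and at 20.9, 15.97, 15.95, 15.97 and 14.4 CPM in Akita. Every Akita library thus exceeded every WT library. Across genotypes the level was 10.5 CPM ± 0.843 (SD, n = 9) in WT and 17.5 CPM ± 2.25 (SD, n = 9) in Akita, a log2 fold change of 0.72 ± 0.08 (SE, edgeR adjusted p = 0.00017). The effect was 0.74 ± 0.13 (SE) without NACET and 0.71 ± 0.10 (SE) with it.

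Igf2 is also the nearest tested neighbour of the mutated gene. In mm9 its end lies 11.8 kb from Ins2 and the annotations do not overlap. Within 1 Mb of Ins2, 19 genes were tested and Igf2 was the 1 called, with a median log2 fold change of −0.02 over the 19. Within 5 Mb, 5 of 103 genes were called and 4 were shared, namely Igf2, Pwwp2b, Stk32c and Cox8b, while Mtg1 was called but not shared. Over all genes tested 1.36% were called and 0.871% shared, both smaller shares than within these 5 Mb. That difference was not tested. Th and Cdkn1c, other genes of the neighbourhood, had log2 fold changes of −0.41 (adjusted p = 0.37) and 0.38 (adjusted p = 0.37). Any sequence carried along with the Akita allele in this stretch cannot be told apart from the mutation itself. The annotation also places Igf2as on the opposite strand and a microRNA gene within Igf2, and reads were counted without strand.

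**Figure D3:**
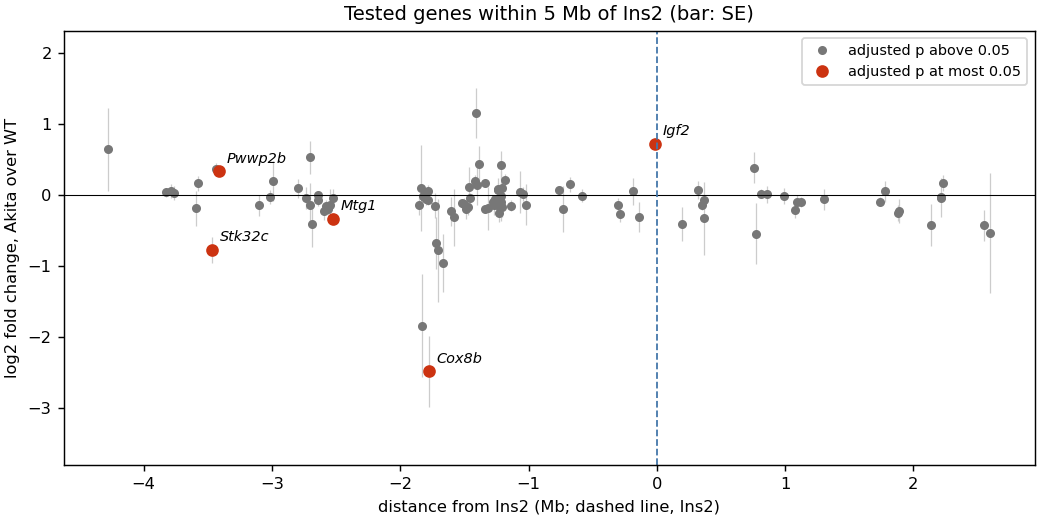
Log2 fold change of Akita over WT adjusted for NACET, with SE bars, for the 103 tested genes within 5 Mb of Ins2, against their distance from it (Mb). Igf2, next to the dashed line that marks Ins2, stands at 0.72, and the other tested genes within 1 Mb have adjusted p-values above 0.05.

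Hdc and Cry1 were also higher in every Akita library than in any WT library. Hdc (mm9 chr2:126419403-126445035) encodes histidine decarboxylase, the enzyme that makes histamine. It was at 61.2, 67.5 and 70.5 CPM in WT, at 108, 102, 102 and 147 CPM in Akita, between 47.3 and 64.7 CPM with a median of 51.6 in WT + NACET, and at 83.4, 77.8, 76.7, 90.7 and 84.8 CPM in Akita + NACET. The difference was 0.69 ± 0.08 on the log2 scale (SE, adjusted p = 0.000269). Within each genotype the NACET libraries lay below most of the untreated ones, while Akita libraries lay above WT libraries in both.

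Cry1 encodes a cryptochrome, a repressor of the circadian clock. It was at 78.4, 96.5 and 105 CPM in WT and at 119, 117, 126 and 151 CPM in Akita. With NACET it was between 75.7 and 90.2 CPM, with a median of 83.4, in WT and at 141, 120, 108, 113 and 106 CPM in Akita. The log2 fold change was 0.49 ± 0.07 (SE, adjusted p = 0.00211). Of the 19 clock genes tested, Cry1 was the 1 called. The list had a median log2 fold change of 0.22, against −0.01 over all genes tested. Its members were positive in 17 cases, but only 7 of them in both comparisons. Per1 had 0.04 without NACET and 0.84 with it, and Per2 had −0.19 and 0.86. The hour of tissue collection was not given in the sources used here.

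Col4a3 encodes the alpha 3 chain of the collagen IV of specialised basement membranes. It was at 181, 151 and 175 CPM in WT, at 320, 262, 190 and 312 CPM in Akita, between 129 and 194 CPM with a median of 153 in WT + NACET, and at 314, 247, 238, 243 and 259 CPM in Akita + NACET. Akita replicate 3 fell within the WT range and the 8 other Akita libraries lay above it. The log2 fold change was 0.70 ± 0.10 (SE, adjusted p = 0.00193). Col4a4, its head-to-head neighbour and partner chain, had 0.65 (adjusted p = 0.0087) but was not shared, with 0.20 without NACET and 0.94 with it. These were the 2 called among 18 tested genes of the extracellular matrix list, whose median was −0.32. Lima1, an actin-binding protein, Fgd4, a Cdc42 exchange factor mutated in an inherited neuropathy, and Sntg2, a syntrophin, had log2 fold changes of 0.44, 0.60 and 0.55, with adjusted p-values of 0.00397, 0.00269 and 0.00397.

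Of the NRF2 targets, Akr1b8 alone was called, out of 23 tested. It encodes an aldo-keto reductase close to aldose reductase. It was at 0.287, 1.04 and 0.783 CPM in WT and at 2.45, 1.62, 2.39 and 2.40 CPM in Akita. With NACET it was between 0.795 and 1.72 CPM, with a median of 1.26, in WT and at 2.41, 3.30, 3.32, 3.29 and 1.89 CPM in Akita. A single Akita library, replicate 2 without NACET, lay within the WT range. The log2 fold change of 1.34 ± 0.21 (SE, adjusted p = 0.00371) was the largest among the 12 genes with the smallest p-values on the higher side. The median of the NRF2 targets was −0.04, and the aldose reductase gene Akr1b3 had −0.13 (adjusted p = 0.71). Nqo1 had −0.27 ± 0.17 (SE, adjusted p = 0.421), Hmox1 had −0.46 ± 0.20 (SE, adjusted p = 0.221) and Nfe2l2 had 0.13 ± 0.10 (SE, adjusted p = 0.509). Nfe2l2 instead had opposite signs in the comparisons, 0.47 without NACET and −0.08 with it.

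Strn3, a subunit of a phosphatase complex, had 0.44 (adjusted p = 0.000745) and Tmem106a, a transmembrane protein of macrophages, had 0.75 (adjusted p = 0.00222), both with no overlap between genotypes. Tmem116 had 0.93 (adjusted p = 0.00107), made up of 0.52 without NACET and 1.20 with it. Strn3 overlaps Ap4s1, and Tmem116 overlaps 5 genes of the other strand, so that their reads may be mixed. Also without overlap were Ube3c, Suv39h1, Sp2, Ahcyl1, Ston2, Mcl1, Rsrc1 and Sf3b4, with log2 fold changes from 0.22 to 0.47. They include a ubiquitin ligase, a histone H3 methyltransferase, an anti-apoptotic BCL2 family member and a splicing factor. Mcl1, Rsrc1 and Sf3b4 had adjusted p-values of 0.0407, 0.0447 and 0.0487, and each lost its call without at least 13 of the 18 libraries taken singly.

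The inducible HSP70 genes Hspa1a and Hspa1b, which encode the same cytosolic chaperone, rose together. Hspa1a was at 51.2, 75.5 and 83.3 CPM in WT, at 84.0, 76.3, 83.4 and 141 CPM in Akita, between 35.1 and 53.8 CPM with a median of 47.5 in WT + NACET, and at 67.5, 68.1, 67.5, 84.6 and 75.6 CPM in Akita + NACET. With NACET the genotypes were separate, and without it they overlapped. The log2 fold changes were 0.57 ± 0.12 (SE, adjusted p = 0.024) for Hspa1a and 0.83 ± 0.16 (SE, adjusted p = 0.0123) for Hspa1b. Their coding sequences are near-identical and reads with several alignments were not counted, so their division between the copies is uncertain. They were the 2 called among 14 tested heat shock genes, whose median was −0.06. Dnajb1 had 0.16 (adjusted p = 0.27), Hspa8 had 0.08 (adjusted p = 0.67) and Hsp90ab1 had −0.29 (adjusted p = 0.063).

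The promoters of Hspa1a, Hspa1b and Cry1 are shown because each belongs to a pathway with a well-known promoter element, the heat shock element for HSP70 and the E-box for clock genes. Each is the 250 bases before the RefSeq start in GRCm38.p6, read 5′ to 3′ on the minus strand, with the element in capitals. They are chr17:34972157-34972406, chr17:34959239-34959488 and chr10:85185055-85185304.
Hspa1a: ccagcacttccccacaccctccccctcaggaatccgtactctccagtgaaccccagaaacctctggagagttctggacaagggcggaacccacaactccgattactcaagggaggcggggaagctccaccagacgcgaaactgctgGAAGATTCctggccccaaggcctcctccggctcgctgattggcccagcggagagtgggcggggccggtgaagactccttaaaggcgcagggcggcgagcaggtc
Hspa1b: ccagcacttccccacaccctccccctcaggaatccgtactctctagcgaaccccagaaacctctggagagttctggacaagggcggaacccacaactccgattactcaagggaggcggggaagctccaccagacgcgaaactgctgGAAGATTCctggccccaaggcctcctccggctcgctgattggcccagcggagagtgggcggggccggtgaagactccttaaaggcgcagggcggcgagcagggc
Cry1: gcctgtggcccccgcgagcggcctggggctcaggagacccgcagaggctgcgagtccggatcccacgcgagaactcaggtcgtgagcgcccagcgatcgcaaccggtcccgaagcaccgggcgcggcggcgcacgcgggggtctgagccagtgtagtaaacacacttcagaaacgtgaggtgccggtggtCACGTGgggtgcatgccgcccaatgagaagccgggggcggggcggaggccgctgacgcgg

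The Hspa1a and Hspa1b promoters had the same base at 247 of 250 positions (98.8%), and both held a match 104 bases before the start. The heat shock element was searched as GAANNTTC or TTCNNGAA, each of which reads the same on both strands, and the E-box as CACGTG, likewise the same on both. The first was found in 12.8% of 32851 promoters of this length and in 10.1% of those of genes tested. It was in 10.6% of 113 promoters of shared genes that were higher in Akita and in 18.2% of 33 promoters of those that were lower. The E-box, 60 bases before the start of Cry1, was in 6.02% of all promoters, 8.06% of those of genes tested, 6.19% of the 113 and 9.09% of the 33. Promoters were held for 82 of the 104 genes and 28 of the 37. These matches describe the letters in the window and were not tested as binding sites.

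On the lower side, Gabra2 had the smallest p-value. It encodes the alpha 2 subunit of the GABA-A receptor, a chloride channel of inhibitory synapses. It was at 11.4, 7.59 and 7.83 CPM in WT and at 3.65, 5.91, 8.92 and 3.81 CPM in Akita. With NACET it was between 16.2 and 22.6 CPM, with a median of 19.03, in WT and at 6.96, 7.19, 7.02, 7.02 and 7.71 CPM in Akita. The WT + NACET libraries were above all others, the untreated genotypes overlapped in 1 Akita library, and the log2 fold change was −0.67 ± 0.23 (SE) without NACET and −1.42 ± 0.18 (SE) with it. Adjusted for NACET it was −1.14 ± 0.17 (SE, adjusted p = 0.00193). Gabra2 carries a known variant of C57BL/6J that lowers its expression, and its level in WT + NACET moved with the substrain-linked genes described above. Their part in the NACET comparison was not tested.

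Rian, a noncoding RNA of the imprinted Dlk1-Dio3 cluster, was at 32.1, 24.6 and 22.2 CPM in WT and at 15.3, 16.7, 14.8 and 9.86 CPM in Akita. With NACET it was between 18.3 and 34.2 CPM, with a median of 28.0, in WT and at 21.4, 17.4, 17.04, 15.9 and 16.7 CPM in Akita. Without NACET the genotypes were separate, and with NACET 1 library of each crossed. The log2 fold change was −0.74 ± 0.12 (SE, adjusted p = 0.00397). Meg3 and Mirg, noncoding RNAs of the same cluster, did not share this pattern, since Meg3 had −1.73 without NACET and 0.52 with it, and Mirg had −1.93 and 0.44. Ndn, an imprinted gene of the Prader-Willi region expressed in neurons, had −0.46 ± 0.10 (SE, adjusted p = 0.0249).

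The gene 1190005F20Rik had −0.34 (adjusted p = 0.0044), Manea, a mannosidase of the Golgi, had −0.36 (adjusted p = 0.00548) and Mccc2, a subunit of the carboxylase that degrades leucine, had −0.40 (adjusted p = 0.0060). In these 3 every Akita library lay below every WT library. Manea, for example, was at 26.6 CPM ± 2.32 (SD, n = 9) in WT and 20.6 CPM ± 1.01 (SD, n = 9) in Akita. Gckr, the regulator of glucokinase, had −0.51 (adjusted p = 0.0224), with −0.78 without NACET and −0.34 with it. Spon1, a secreted matrix protein, Dpp7, a lysosomal peptidase, and Gpc3, a glypican, had −0.52, −0.47 and −0.77.

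Glul encodes glutamine synthetase, which in the retina converts glutamate to glutamine in Mueller glia. It was at 1002, 998 and 888 CPM in WT and at 825, 762, 792 and 419 CPM in Akita. With NACET it was between 795 and 1153 CPM, with a median of 964, in WT and at 687, 670, 739, 658 and 786 CPM in Akita. The untreated genotypes were separate, and with NACET all Akita libraries lay below the WT range. The log2 fold change was −0.46 ± 0.11 (SE, adjusted p = 0.0417), −0.46 without NACET and −0.45 with it, and the call was lost without 11 of the 18 libraries taken singly. Of 12 tested Mueller glia genes, all 12 had negative values, 7 of them in both comparisons, with a median of −0.17. Clu was the other one called (−0.57, adjusted p = 0.025), and it missed the shared rule in the comparison without NACET.

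**Figure D4:**
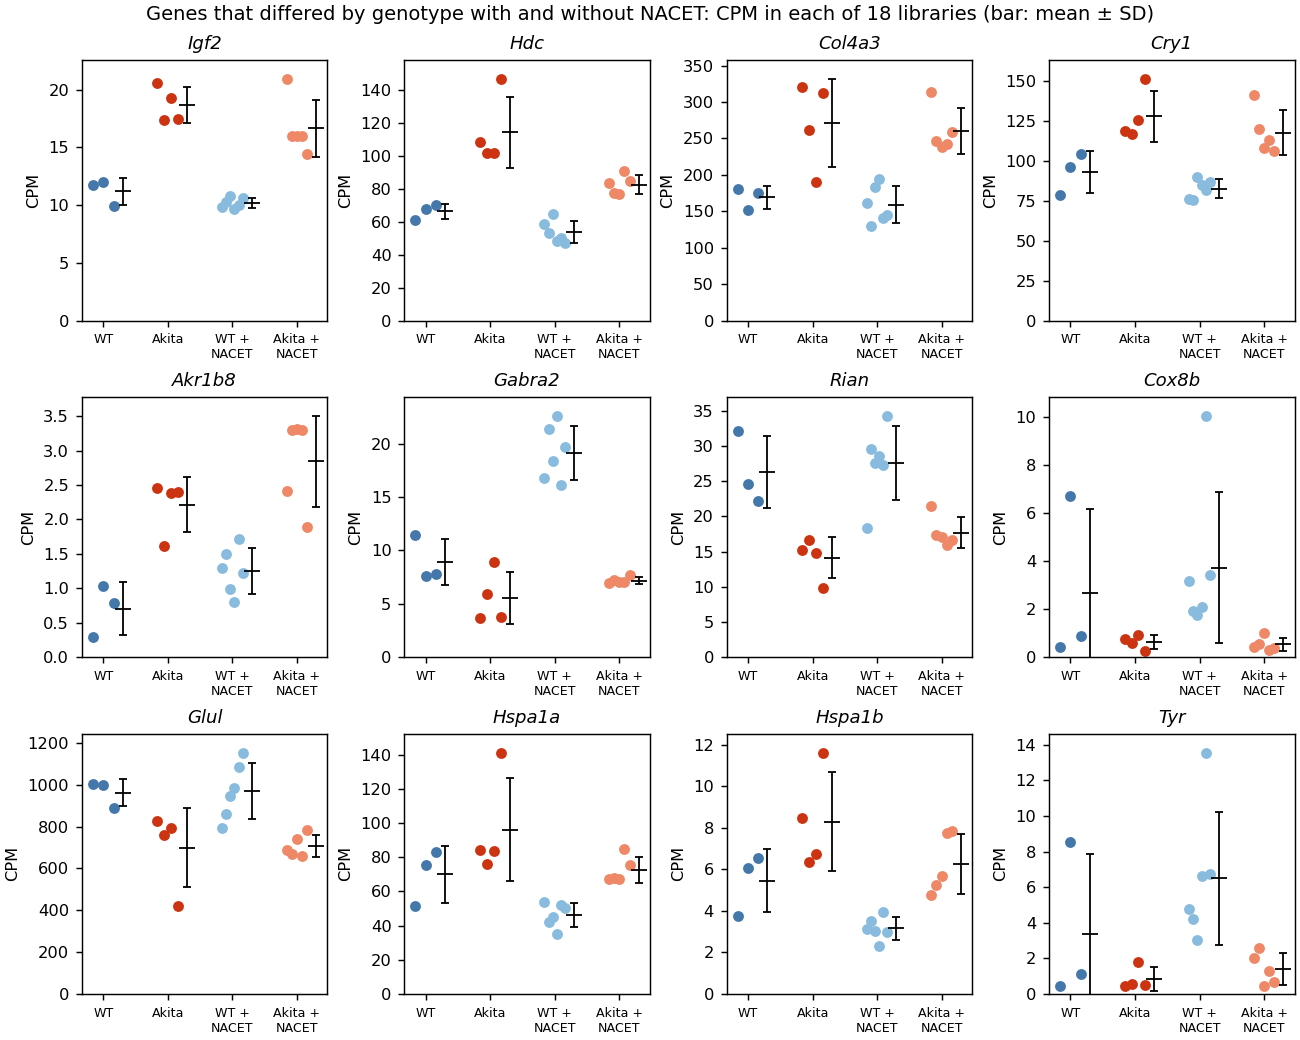
CPM of 12 shared genes in each of the 18 libraries, 1 point per library in 4 groups, with the mean and SD of each group beside the points. Igf2, Hdc and Cry1 show no overlap of Akita with WT libraries, whereas Tyr and Cox8b are spread widely among WT libraries, from 0.431 CPM upward.

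The largest decreases were in genes of low or uneven level, several of them pigment cell genes. Tyr, the tyrosinase of melanin synthesis, was at 0.431, 8.55 and 1.14 CPM in WT, at 0.421, 0.579, 1.82 and 0.497 CPM in Akita, between 3.04 and 13.5 CPM with a median of 5.71 in WT + NACET, and at 1.998, 2.59, 0.447, 1.30 and 0.653 CPM in Akita + NACET. Without NACET the difference lay largely in WT replicate 2. The log2 fold change was −2.12 ± 0.49 (SE, adjusted p = 0.0418), and it was −1.65 (adjusted p = 0.0892) without that library. Cox8b, a muscle-type subunit of cytochrome c oxidase, followed the same library, at 6.71 CPM in WT replicate 2 and 0.431 and 0.903 CPM in the other WT libraries, with −2.48 ± 0.50 (SE, adjusted p = 0.0217) and −2.02 (adjusted p = 0.0541) without it.

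Of 12 tested markers of the pigment epithelium, 11 were negative in both comparisons, with a median log2 fold change of −1.38, −1.46 without NACET and −1.37 with it. Only Tyr was called, and Rlbp1 was also a member of the Mueller glia list above. Without NACET the difference rested on WT replicate 2. The markers summed to 1443 CPM in it and to 531 and 552 CPM in the other WT libraries, which lay within the range of Akita, 301 to 630 CPM. When it was left out, the median without NACET was −0.07 and 6 of the 12 were negative in both comparisons. With NACET the sum was 1052 to 1955 CPM in WT and 440 to 1044 CPM in Akita, with no overlap. The size of the median with NACET depended in part on WT + NACET replicate 5. When that library was left out, the median with NACET was −0.92 and 10 of the 12 were negative in both comparisons. Pmel and Mlana were at 139.9 and 71.96 CPM in it. Their medians in WT + NACET, 4.45 and 2.91 CPM, lay below those in Akita + NACET. Rpe65, the defining enzyme of these cells, was present in every library, at 5.27 to 104 CPM. In whole retinas, fewer adhering cells of a type and less RNA per cell cannot be told apart. Other shared genes that pigment cells express, chosen after their values were seen, were Enpp2 (−1.37), Trf (−1.37), Serpine3 (−1.33), Pltp (−1.09), Slc24a5 (−0.93) and Cd63 (−0.54). With the mean level of 11 pigment epithelium markers as a covariate, none of these 6 was called, with Enpp2 at −1.05, Serpine3 at −0.98, Trf at −0.88, Pltp at −0.62, Cd63 at −0.29 and Slc24a5 at −0.24. Nor was Tyr (−0.61, adjusted p = 0.411), Cox8b (−1.003, adjusted p = 0.479) or Glul (−0.42, adjusted p = 0.283, against −0.46 without the covariate). Tyr is itself among the 11 markers, so its smaller value there is built in. The centred marker mean averaged −1.11 in Akita, −0.07 in WT, −0.20 in Akita + NACET and 0.94 in WT + NACET. The covariate thus takes up part of the difference between genotypes. In that fit 24 of the 141 genes stayed shared, 18 higher and 6 lower, among them Igf2, Hdc, Cry1, Col4a3, Akr1b8, Gabra2 and Rian. The median log2 fold change was then 0.41 for the 104 genes and −0.59 for the 37.

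**Figure D5:**
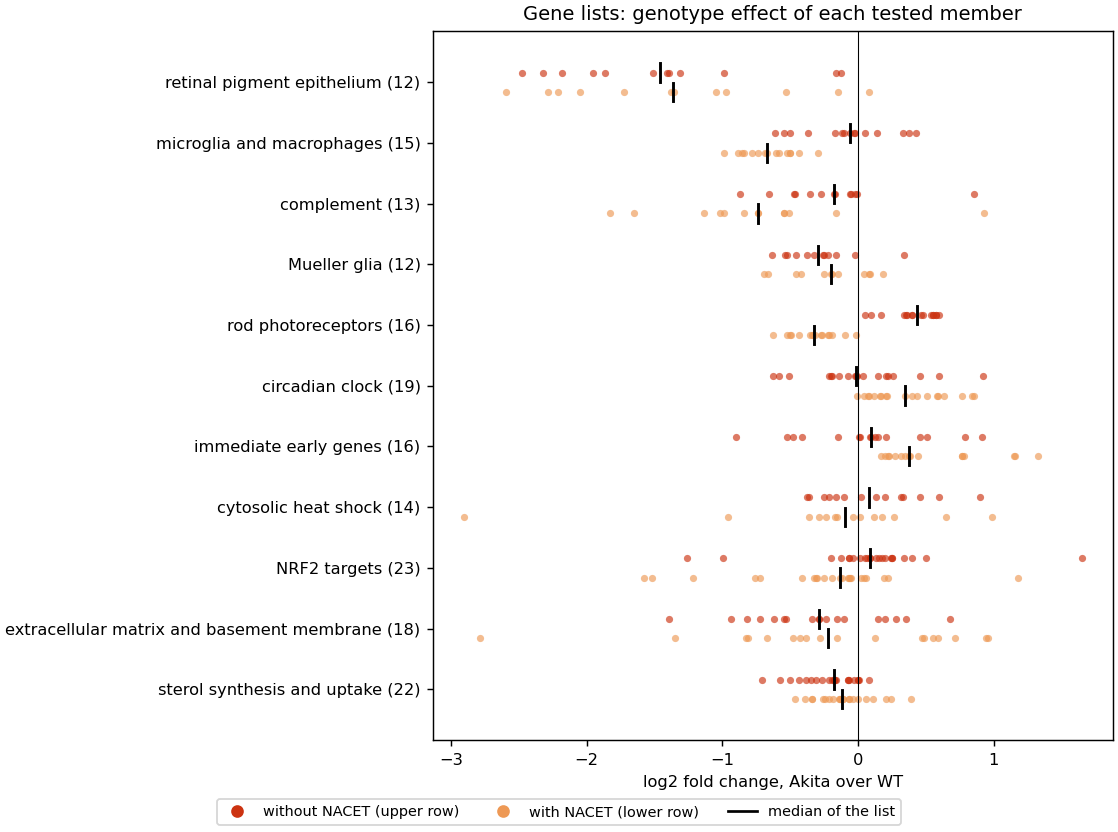
Log2 fold change of Akita over WT for each tested gene of 11 lists, without NACET (upper row of points) and with it (lower row), with the median of each list as a bar and the number tested in parentheses. All but 1 of the 12 pigment epithelium markers lie left of 0 in both rows (medians −1.46 and −1.37), whereas the rod genes lie right of 0 without NACET and left of it with NACET (medians 0.43 and −0.32).

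The lists of microglia, complement, gliosis and interferon genes had mostly negative values and no shared gene. Outside these lists, Tmem106a and Nod2 were shared and higher in Akita, and Vav1 and Pstpip2 were shared and lower. All 15 microglia and macrophage genes tested had negative values, 10 of them in both comparisons, with a median of −0.52, and none was called. That median was −0.06 without NACET and −0.67 with it, where the WT libraries are those that stood apart in the substrain genes. Of 13 complement genes 12 were negative in both comparisons, with a median of −0.57, −0.18 without NACET and −0.74 with it, and again none was called. Of 15 reactive gliosis genes 13 were negative, with medians of 0.04 without NACET and −0.98 with it, and Osmr (−0.85, adjusted p = 0.0257) and Edn2 (−1.69, adjusted p = 0.0301) were called. Of 16 interferon and MHC class I genes 12 were negative, with medians of 0.07 and −0.31, and B2m (−0.70, adjusted p = 0.0435) and Bst2 (−0.84, adjusted p = 0.0416) were called. None of these 4 was shared. C3 had −1.18 (adjusted p = 0.091) and C4b −1.22 (adjusted p = 0.059), with −0.35 and −0.18 in the comparison without NACET and −1.65 and −1.83 in that with it. Gfap, the marker of gliosis, had −0.88 ± 0.40 (SE, adjusted p = 0.269), with 0.46 without NACET and −1.65 with it. Il1b and Il6 had at most 5 and 2 counts in any library and were not tested.

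Photoreceptor genes showed no shared change. Of the 16 rod genes tested none had the same sign in both comparisons, and Gnat1 had 0.57 without NACET and −0.34 with it. Immediate early genes were positive in 14 of 16 cases, 11 in both comparisons, with a median of 0.24 and no call. The 22 sterol synthesis genes were negative in 19 cases, 14 in both comparisons, with a median of −0.15, and Nsdhl was called (−0.36) but not shared. Glycolysis, fatty acid synthesis and endoplasmic reticulum stress genes had medians of 0.02, −0.03 and 0.06 and no call among 19, 13 and 21 genes tested.

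The shared genes were spread over the genome. The largest number, 15 of 1176 tested genes (1.28%), was on chromosome 7, which carries Ins2. As a share this was not the largest. It was 1.61% on chromosome 12, 1.38% on chromosome 18, 1.28% on chromosome 1 and 5.56% of the 18 tested mitochondrial genes. None of the 532 tested genes of chromosome 19 was shared. The genes that were higher in Akita had a median exon length of 4694 bases and a median level of 36.1 CPM, against 3404 bases and 15.98 CPM over all genes tested, and those that were lower had 2690 bases and 15.8 CPM. GC content was alike, at medians of 50.7%, 51.0% and 50.4%. Of the 141 genes, 16 kept their call and direction under all 28 other ways of fitting the model that were tried, 18 of which each left out 1 library (27 for Akr1b8, which 1 filter removed). They were 13 genes that were higher, namely Igf2, Hdc, Strn3, Tmem116, Col4a3, Cry1, Tmem106a, Fgd4, Akr1b8, Gm11961, Sntg2, Lima1 and Tcea3, and 3 that were lower, Gabra2, Rian and 1190005F20Rik. The shared rule itself held in all of these fits for 11 of the 16, the exceptions being Tmem116, Gm11961, Lima1, Tcea3 and Gabra2. None of the 141 changed direction in any of these fits. The rule chose the genes for their direction in these same libraries, so this was largely fixed in advance.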

How the data were processed

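The deposited values are raw read counts per gene, 1 file per library. Per the study's methods and processing notes, the authors made poly(A) libraries (TruSeq RNA v2), read them from 1 end on a NextSeq 500, aligned reads to mm9 with TopHat2 2.1.0 and counted exon reads without strand with HTSeq 0.11.2, leaving out reads with several alignments (9.04% on average).

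Summary entries, an entry without a gene name (0.0054% of counts) and 206 ribosomal RNA genes (0.977%) were removed from 35006 gene names, and 16183 genes passed edgeR's filter (minimum count 10). The model was edgeR 4.0.16 (R 4.3.3), TMM, robust quasi-likelihood F test, genotype plus treatment. A fit with 4 groups gave the genotype effect without and with NACET and the interaction. The biological coefficient of variation was 0.209. SE derive from the F statistic. The code was tested on simulated data. No pair of replicates agreed within counting noise (lowest chi-square per gene 4.82). Counts this deep leave genes near 1 CPM the least precise.

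Named genes were 12 in each direction, by smallest p (mean of at least 1 CPM), those without overlap, shared members of the lists, and Ins2, Nfe2l2, Nqo1, Hmox1, Il1b, Il6 and Gfap. Some genes are not reported here. Members and lists were chosen with earlier results of these data known. Promoters are RefSeq's (GRCm38.p6). Alternatives, with DESeq2 1.42.0 and sva 3.50.0, are given in the closing section.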

Additional observations from a re-analysis of the deposited data

Results flagged for a closer look

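In 15 of 129 combinations of a gene or library measure with a group of 4 to 6 libraries, 1 library lay far from the rest of its group by Dixon's criterion, which chance does in about 1 of 20. Among shared genes, Akita replicate 4 was apart for Hdc (147 CPM), Fgd4 (155 CPM), Glul (419 CPM) and Hspa1a (141 CPM). Akita + NACET replicate 1 was apart for Igf2 (20.9 CPM), Col4a3 (314 CPM), Rian (21.4 CPM), Sp2 (37.2 CPM) and Nfe2l2 (35.7 CPM). WT + NACET replicate 5 was apart for Cox8b (10 CPM), Tyr (13.5 CPM) and Hmox1 (7.55 CPM), Akita replicate 3 for Tyr (1.82 CPM) and Hmox1 (4.83 CPM), and Akita replicate 2 for Akr1b8 (1.62 CPM). For 3 named genes the genotype effect differed between the NACET and the untreated mice, by the interaction term of edgeR. It was larger with NACET by 0.678 for Tmem116 (adjusted p = 0.0257), and more negative with NACET for Nfe2l2 (−0.548, adjusted p = 0.0179) and Gfap (−2.11, adjusted p = 0.0209).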

How the results depend on the processing

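Counts of called genes changed by less than 1.5 times with DESeq2 size factors, a mean count of at least 50, ribosomal RNA genes kept or 1 surrogate variable. DESeq2 called 792 genes adjusted for NACET and 2062 without NACET, with 298 shared. The mean of both genotype effects in the fit of 4 groups called 429, and no filter called 132. With the reads outside exons as a covariate there were 806 calls adjusted for NACET, 0 without NACET (edgeR, with 2022 genes at an unadjusted p below 0.05), 194 with NACET and 17 for the interaction. That fit named 166 shared genes, 75 of them among the 141. The share of reads outside exons separates the untreated genotypes, so the covariate and the genotype cannot be told apart in the comparison without NACET. Requiring the same sign alone gave 218 shared genes, and an adjusted p of at most 0.05 in each comparison gave 25. The covariate of pigment epithelium markers, chosen after seeing the data, left 33 calls adjusted for NACET, 477 without it, 737 with it and 27 shared genes, and turned Nqo1 to 0.019.

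Without single libraries, calls ranged from 69 (without Akita + NACET replicate 4) to 333 (without Akita replicate 3) adjusted for NACET, from 0 (without WT replicate 1, with 3021 genes at an unadjusted p below 0.05) to 1612 without NACET, from 860 to 2710 with NACET and from 1699 to 3524 for the interaction. Without WT replicate 2 there were also 0 calls without NACET (edgeR, with 3241 genes at an unadjusted p below 0.05), and 1730 for the interaction; without WT replicate 1 the interaction had 1699, and without Akita replicate 4 there were 234 calls without NACET. Calls adjusted for NACET moved by more than 1.5 times without Akita replicate 3 (above), WT replicate 1 (130), Akita + NACET replicates 1 to 5 (102, 112, 107, 69 and 135) or WT + NACET replicates 2 to 6 (99, 99, 88, 121 and 88). Calls with NACET did so without Akita + NACET replicates 2, 4 or 5 (1368, 1343 and 860) or WT + NACET replicates 3 or 5 (1124 and 1266). Shared genes ranged from 57 to 195. They fell by more than 1.5 times without WT replicate 1 (57), Akita + NACET replicates 1, 2, 3 or 4 (76, 87, 80 and 59), or WT + NACET replicates 2, 3, 4, 5 or 6 (73, 77, 65, 93 and 65).

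With the replicate number as a block there were 26 calls adjusted for NACET, 507 without it, 1363 with it and 24 shared genes, 22 of them among the 141. Same-numbered libraries of different groups did not deviate together (22 pairs, correlations from −0.332 to 0.345, 18 of them not above 0.1), so the numbers were not taken to pair samples.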

Other observations

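Several shared genes outside the named ones, picked after their values were seen, are known from surface epithelium or muscle. Krt6a, an epithelial keratin, had the largest increase of the 141 (2.53 ± 0.51 SE, adjusted p = 0.022), at a median of 0.602 CPM in WT, 2.08 CPM in Akita, 0.104 CPM in WT + NACET and 1.71 CPM in Akita + NACET. Krt5, a keratin of basal epithelium, was called (2.19, adjusted p = 0.042) but was not shared. Of 5 tested genes of the cornea and conjunctiva list, 4 were positive in both comparisons and 1 was negative, with a median of 1.59. Scn4a and Chrnb1, the sodium channel and an acetylcholine receptor subunit of muscle, had 1.09 and 0.68, and Cox7a1, a muscle-type cytochrome oxidase subunit, had 0.70. For Scn4a the median was 7.89 CPM in WT, 26.1 CPM in Akita, 10.9 CPM in WT + NACET and 16.97 CPM in Akita + NACET. The 3 tested genes of the list of skeletal and extraocular muscle markers were all negative and not called, with a median of −0.03. Without NACET they summed to 11.1 to 14.1 CPM in Akita and 13.4 to 19.1 CPM in WT. With NACET the sums overlapped, at 7.71 to 9.76 CPM in Akita and 6.54 to 9.64 CPM in WT. Cox8b, also a muscle-type subunit, was among the shared genes that were lower (−2.48). Nod2, a sensor of bacterial peptidoglycan, had 1.31 (adjusted p = 0.0083) at under 1 CPM on average.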
